A study of Mus musculus with 14 samples.

Results

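The antioxidant set held 38 mouse genes that make, use or recycle glutathione and thioredoxin or that remove superoxide and peroxide. They were chosen by gene symbol, and all 38 were found by name among the 55335 genes of the deposited count table. All 38 also passed the filter on low counts, which left 21509 genes for testing. By role they comprised 2 regulators (NRF2 and its inhibitor), 4 genes of glutathione synthesis and recycling, 4 glutathione peroxidases, 12 glutathione transferases, 7 peroxiredoxin and sulfiredoxin genes, 4 thioredoxin system genes, 4 catalase and superoxide dismutase genes and 1 quinone reductase. From textbook knowledge, 9 members were classed as NRF2 targets (Nqo1, Gclc, Gclm, Gsr, Srxn1, Txnrd1, Txn1, Prdx1 and Gstm1) and 4 as red cell antioxidants (Prdx2, Cat, Gpx1 and Sod1).

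RNA was sequenced from 14 libraries of mouse bone marrow cells, and the study asked how the cells of the marrow niche differ after external and after antibody-carried irradiation. All mice had the genotype Cdh5 CRE Rosa26 TdTomato, in which the Cdh5 promoter drives Cre and Cre switches on the red reporter TdTomato, and all libraries came from cells sorted as Lineage- CD45- TdTomato+ and labelled as marrow endothelium. A reporter of this kind also marks descendants of any cell that once expressed Cdh5, blood cells included. The groups were untreated mice (n = 4), total body irradiation with 500 cGy from a caesium source (TBI, n = 5), radioimmunotherapy with a non-targeted IgG at 20 µCi (IgG RIT, n = 3) and radioimmunotherapy targeted to CD45, the common antigen of white blood cells, at 20 µCi (CD45 RIT, n = 2). Radioimmunotherapy uses an antibody to carry a radionuclide, which the series title names as astatine for the CD45-targeted form. Harvest was 8 days after treatment, and the ages of the mice and their strain beyond these alleles were not given in the sources used here. TBI replicate 2 was not analysed here. The labels do not say that replicates came from separate mice, so p-values measure only the spread between these samples.

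Total counts ranged from 16412779 to 31077588 per library, which puts a floor of 3 counts at 0.0786 to 0.215 CPM (read counts scaled to a common library size). Cdh5 itself had at most 6 counts in any library and 0 in all RIT libraries, and 15 endothelial markers summed to 162 to 207 CPM in untreated, 66.2 to 139 in TBI, 62.3 to 71.9 in IgG RIT and 118 to 227 CPM in CD45 RIT libraries, so the endothelial label is not borne out by its defining gene. Sums over lists are CPM on the library total, without scaling factors. Summed over 15 erythroid markers (globins, membrane skeleton and haem synthesis genes among them), untreated libraries held 8857 to 15840 CPM, TBI replicates 1, 3, 4 and 5 27700 to 46790, TBI replicate 6 179200, IgG RIT libraries 137100 to 145700, and CD45 RIT replicates 1 and 2 192900 and 47440 CPM. Summed over 16 stromal markers, the ranges were 3363 to 8680 CPM in untreated, 1005 to 2361 in TBI and 392 to 1223 in IgG RIT, with 39410 and 60140 CPM in CD45 RIT. Neutrophil markers (12 genes) went from 10290 to 12920 CPM in untreated to 92.4 to 1217 in TBI, 601 to 804 in IgG RIT and 5.23 to 14.6 in CD45 RIT, and macrophage markers (12 genes) from 151 to 212 CPM in untreated to 27.9 to 46.1, 25.7 to 56.7 and 2333 to 2534 in the same order. Basophil and mast cell markers (8 genes) summed to 7708 to 10810 CPM in untreated, 283 to 1902 in TBI, 10.4 to 381 in IgG RIT and 0.129 to 0.373 in CD45 RIT, and progenitor markers (10 genes) to 882.5 to 1340, 51.7 to 255, 59.2 to 79.1 and 23.0 to 118 CPM. TBI replicate 6 lay nearer the IgG RIT mean than the mean of the other TBI libraries for 31 of the 38 members (81.6%, against 65.3% of all genes tested). The labels number it among libraries 10 to 16 with the RIT samples, while untreated and the other TBI libraries have numbers 1 to 9, so library number and RIT cannot be told apart against untreated. CD45 RIT replicate 2 had counts for 17700 genes, the other libraries for at least 20994. In it, 1308 of 7534 genes with an untreated mean of at least 20 CPM had 3 counts or fewer (17.4%), as did 4 of 31 such members (12.9%: Gclc, Gss, Txnrd1 and Nqo1). Every difference below is one of RNA in a sorted pool, in which fewer cells of a type and less RNA per cell cannot be told apart.

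NRF2, encoded by Nfe2l2, is a transcription factor that KEAP1 holds for degradation until oxidants or electrophiles modify KEAP1. Freed NRF2 binds antioxidant response elements in genes for glutathione synthesis, thioredoxin recycling and quinone reduction. Red blood cells and their precursors carry a separate and very large stock of peroxide-removing enzymes, above all peroxiredoxin 2, catalase and glutathione peroxidase 1, because haemoglobin gives off superoxide as it binds and releases oxygen. In marrow, stromal cells and plasma-facing tissues secrete further members, such as glutathione peroxidase 3 and extracellular superoxide dismutase.

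Promoter windows from RefSeq (GRCm38.p6, 250 bases before to 50 after each start, 40 windows) were matched for 32 of the 38 members. The antioxidant response element core TGACNNNGC, searched on both strands, was in 8 of these 40 windows, each of another member, and in 12.4% of all 32851 promoter windows. Of 7 NRF2 targets with a window, 4 held it (Gclm, Prdx1, Srxn1 and Txnrd1), against 1 of 4 red cell antioxidants (Sod1) and 3 of 21 others (Gstm5, Mgst1 and Nfe2l2). The GATA core AGATAA, also searched on both strands, was in the windows of Gstk1 and Keap1, and in 11.2% of all windows. The core matches and the GATA matches did not lie in the same member's windows. The 4 windows below are shown because their genes went separate ways after IgG RIT. There Gclm and Srxn1 were higher, Prdx1 was lower, and Prdx2 was the red cell member with the largest rise. Capitals mark the core, here on the minus strand, with the first base of the core 134 bases before the start in Gclm (chr3:122245307-122245606, plus strand), 133 before in Prdx1 (chr4:116685349-116685648, plus strand) and 28 after in Srxn1 (chr2:152105274-152105573, plus strand). The Prdx2 window (chr8:84969372-84969671, plus strand) holds no match and has no capitals.
Gclm promoter: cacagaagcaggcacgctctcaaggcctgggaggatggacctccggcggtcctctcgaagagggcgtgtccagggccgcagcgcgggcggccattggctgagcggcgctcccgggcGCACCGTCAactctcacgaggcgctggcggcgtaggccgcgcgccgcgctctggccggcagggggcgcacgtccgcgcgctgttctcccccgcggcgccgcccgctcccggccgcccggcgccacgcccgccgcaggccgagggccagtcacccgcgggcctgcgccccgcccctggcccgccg
Srxn1 promoter: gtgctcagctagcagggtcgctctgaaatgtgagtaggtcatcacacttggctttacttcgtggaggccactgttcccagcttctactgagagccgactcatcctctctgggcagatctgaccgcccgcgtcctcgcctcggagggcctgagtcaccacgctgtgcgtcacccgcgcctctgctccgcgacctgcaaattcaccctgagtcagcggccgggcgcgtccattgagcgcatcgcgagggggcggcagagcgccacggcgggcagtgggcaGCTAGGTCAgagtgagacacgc
Prdx1 promoter: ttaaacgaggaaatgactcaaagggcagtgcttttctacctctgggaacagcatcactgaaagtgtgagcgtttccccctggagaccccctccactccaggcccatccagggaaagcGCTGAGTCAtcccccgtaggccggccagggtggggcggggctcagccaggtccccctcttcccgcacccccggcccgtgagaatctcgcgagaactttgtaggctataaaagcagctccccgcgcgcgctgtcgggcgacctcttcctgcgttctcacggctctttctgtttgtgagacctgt
Prdx2 promoter: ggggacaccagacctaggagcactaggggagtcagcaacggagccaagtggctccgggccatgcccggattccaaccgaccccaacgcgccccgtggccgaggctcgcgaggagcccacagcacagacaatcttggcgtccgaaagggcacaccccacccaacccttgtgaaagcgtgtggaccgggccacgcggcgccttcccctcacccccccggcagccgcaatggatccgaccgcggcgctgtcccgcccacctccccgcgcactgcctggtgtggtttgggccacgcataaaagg
A match describes the letters of a window and is not evidence of a bound site, and elements further away were not searched.

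Against untreated, members were called after each of the 3 treatments. After TBI, 7 members were lower and 0 higher, among them Sod3, Gstm1, Gstm2 and Mgst1. After IgG RIT, 10 were higher, led by Mgst3, Prdx2, Gstt1 and Gpx1, and 9 lower, led by Gstm1 and Gsto1. After CD45 RIT, 11 were higher, led by Sod3, Gstm2, Gpx3 and Gpx7, and 4 lower (Prdx6, Gsto1, Txn2 and Txn1). A gene was called when its adjusted p in edgeR's quasi-likelihood test was under 0.05, with Benjamini-Hochberg adjustment over all 21509 genes, and fold changes are on the log2 scale.

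Set beside the background, 7 of 38 members (18.4%) were called after TBI where 4.31% of all genes were, 3.38% lower and 0.921% higher. After IgG RIT the share was 50.0% (19 of 38), where 16.4% of all genes were called, 5.75% higher and 10.7% lower. After CD45 RIT it was 39.5% (15 of 38) where 33.1% of all genes were called, 14.5% higher and 18.6% lower, so this share lies near the background. The members' median log2 fold change was 0.10 after TBI, 0.03 after IgG RIT and 0.43 after CD45 RIT, and the median over all genes tested -0.16, -0.42 and -0.37. Without scaling factors the CD45 RIT split was 10 higher and 8 lower, and the median over all genes moved to -1.08. As the spread is estimated over all 14 libraries, leaving out both CD45 RIT libraries (an alternative chosen after the data were seen) raised the calls to 17 after TBI, 10 higher and the same 7 lower, and to 24 after IgG RIT, which kept all 19. The shares of all genes called under these alternatives are not given here, so the rise cannot be read as a result about the members. With all 14 libraries and the settings above, 12 members were called in none of the 3 comparisons with untreated (Keap1, Gclc, Gss, Gstm5, Gstp1, Gstt2, Gstk1, Gstz1, Txnrd1, Sod1, Sod2 and Nqo1).

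**Figure D1:**
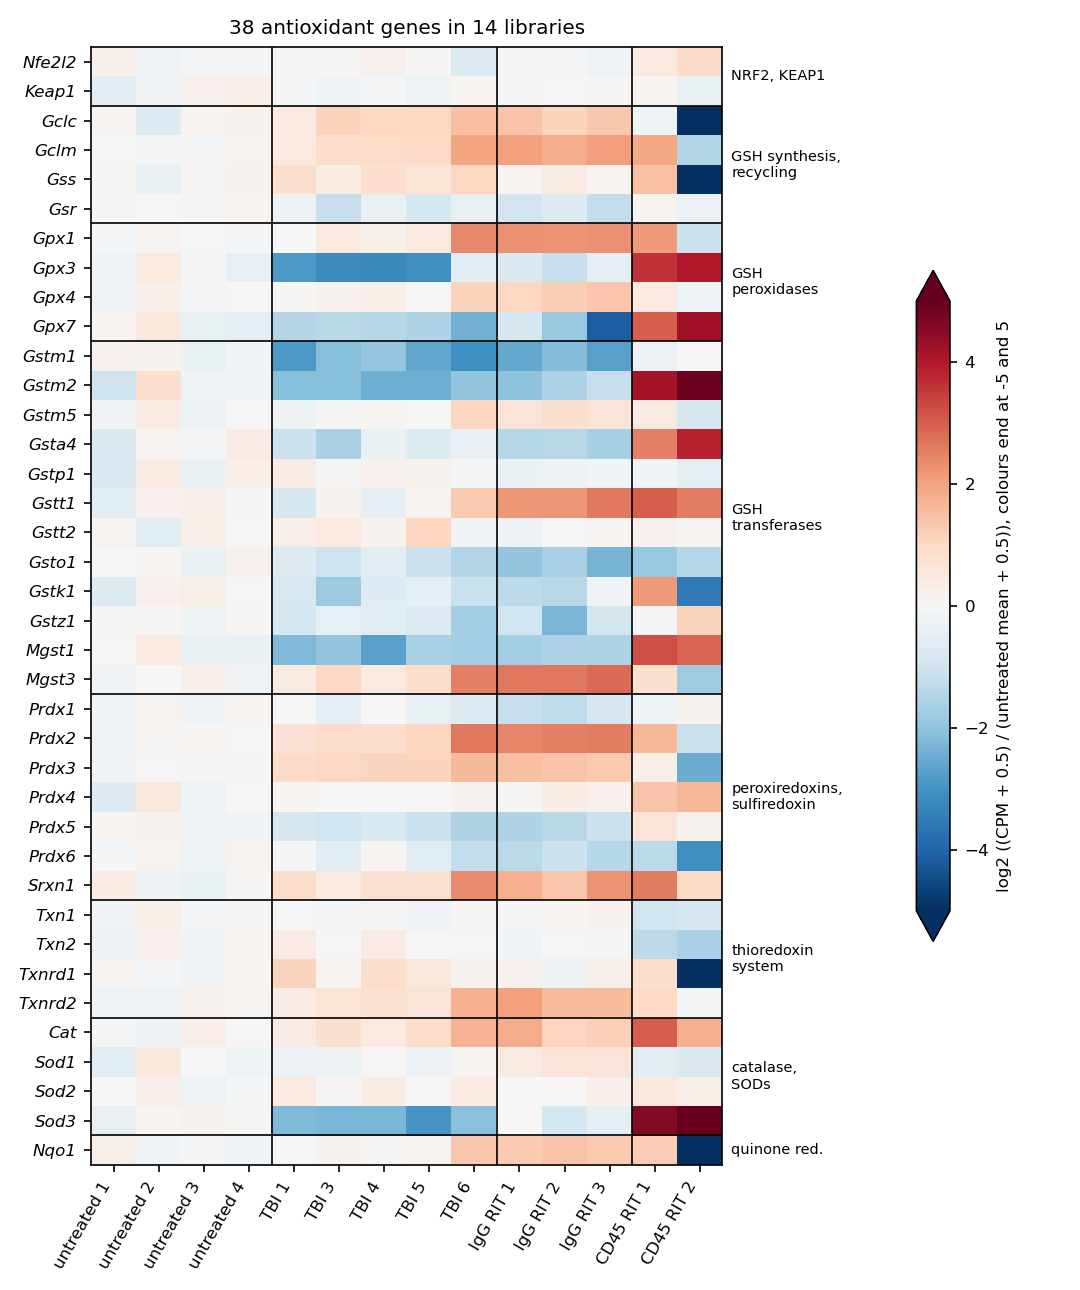
Colours give each library's level as log2 of (CPM + 0.5) over (mean untreated CPM + 0.5), with colours ending at -5 and 5, for 38 genes (rows, by role) in 14 libraries (columns, by group). TBI 6 resembles the IgG RIT columns for Gpx1, Mgst3 and Prdx2, and the CD45 RIT columns are red for Gpx3, Gpx7, Gstm2, Gsta4, Mgst1 and Sod3.

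**Figure D2:**
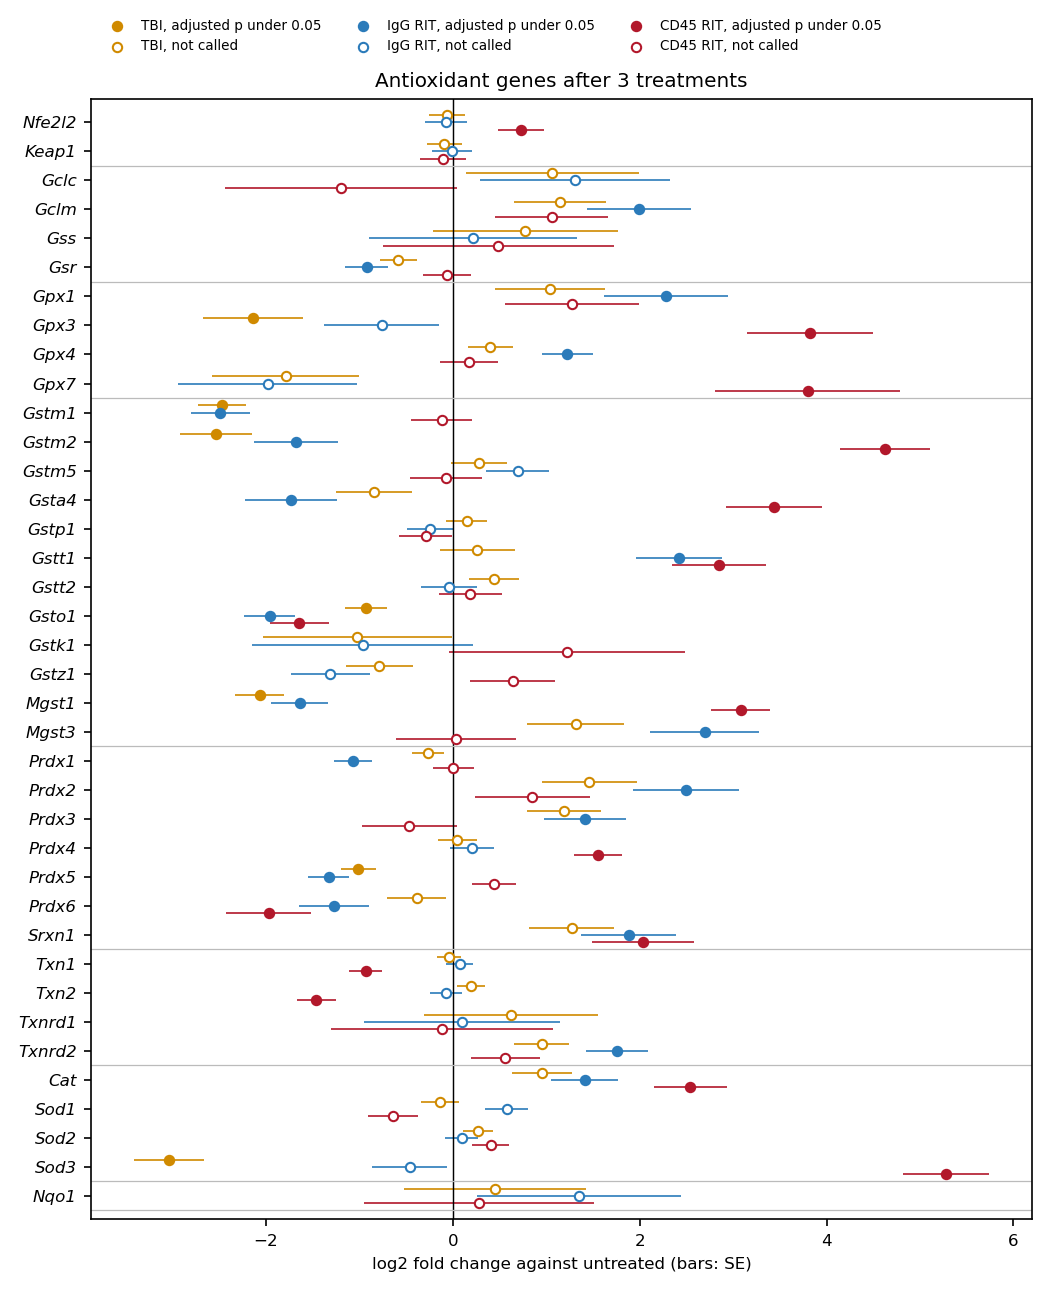
Points give the log2 fold change against untreated (x axis) after TBI, IgG RIT and CD45 RIT for each gene (rows), and bars its SE. Filled points mark an adjusted p under 0.05: 7 after TBI, all left of 0, 19 after IgG RIT and 15 after CD45 RIT.

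NRF2 transcripts were higher after CD45 RIT and the inhibitor was not called. In replicate order (1, 3, 4, 5 and 6 for TBI), Nfe2l2 (ENSMUSG00000015839.6, chromosome 2, 75675513 to 75704641), the NRF2 gene, stood at 125, 91.7, 99.9 and 97.2 CPM in untreated, 97.5, 109, 119.8, 107 and 64.5 CPM in TBI, 109, 95.8 and 90.9 CPM in IgG RIT and 144 and 200.5 CPM in CD45 RIT libraries. Both CD45 RIT libraries lay above the highest untreated library, and the other groups overlapped untreated. Nfe2l2 rose after CD45 RIT by 0.73 (SE 0.24, adjusted p 0.0357) on the log2 scale, and its change was -0.06 after TBI and -0.07 after IgG RIT. Without scaling factors the CD45 RIT value was 0.05 (adjusted p 0.919), without CD45 RIT replicate 2 it was 0.43 (adjusted p 0.219), and the call was also lost with no filter or without untreated replicate 2, 3 or 4 (adjusted p 0.0701 to 0.0755). Keap1, whose product marks NRF2 for degradation, was called in none of the 3 comparisons and ranged over all libraries from 66.5 to 119 CPM.

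Of the 4 genes that make and recycle glutathione, Gclm was higher after IgG RIT and Gsr, which turns oxidised glutathione back, was lower. Gclm (ENSMUSG00000028124.15, chromosome 3, 122245557 to 122270732) encodes the modifier subunit of glutamate-cysteine ligase, the enzyme that sets the rate of glutathione synthesis. Its level was 228, 208, 219 and 246 CPM in untreated, 315, 418, 432, 434 and 895 CPM in TBI, 924, 816 and 948 CPM in IgG RIT and 856 and 81.9 CPM in CD45 RIT libraries. All IgG RIT and TBI libraries lay above all untreated libraries, TBI replicate 6 was among the IgG RIT values, and the CD45 RIT pair lay on opposite sides of untreated. Gclm rose 3.98-fold after IgG RIT, a log2 change of 1.99 (SE 0.55, adjusted p 0.0294). After TBI its log2 change was 1.15 (SE 0.50, adjusted p 0.24), and it was called there when either or both CD45 RIT libraries were left out (1.14 to 1.3, adjusted p 0.0109 to 0.0151). After CD45 RIT the value was 1.06 (SE 0.60, adjusted p 0.187), and it was called in opposite directions without replicate 1 (-1.47, adjusted p 0.0178) and without replicate 2 (1.89, adjusted p 0.00542).

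The catalytic subunit gene, Gclc (ENSMUSG00000032350.9, chromosome 9, 77754535 to 77794485), stood at 183, 106, 185 and 189.5 CPM in untreated, 234, 357, 339, 339 and 469 CPM in TBI, 451, 364 and 420.1 CPM in IgG RIT and 145 and 0.0962 CPM in CD45 RIT libraries. IgG RIT and TBI libraries all lay above untreated, and CD45 RIT replicate 2 had 2 counts. The log2 change was 1.06 (SE 0.93, adjusted p 0.636) after TBI and 1.31 (SE 1.02, adjusted p 0.402) after IgG RIT. With both CD45 RIT libraries left out these were 1.20 (adjusted p 0.00674) and 1.5 (adjusted p 0.00113). Gsr (ENSMUSG00000031584.16, chromosome 8, 33652523 to 33698163), glutathione reductase, was at 170, 160.5, 153 and 174 CPM in untreated, 133, 74, 126, 90.05 and 127 CPM in TBI, 87.8, 104 and 69.1 CPM in IgG RIT and 182 and 134 CPM in CD45 RIT libraries. The IgG RIT and TBI libraries all lay below the lowest untreated library. Gsr fell after IgG RIT (-0.92, SE 0.23, adjusted p 0.0202), and its change was -0.58 (SE 0.20, adjusted p 0.127) after TBI and -0.06 (SE 0.26, adjusted p 0.873) after CD45 RIT. Gss, glutathione synthetase, was called nowhere against untreated and ranged from 34 to 48.5 CPM in untreated and 55.9 to 89.1 CPM in TBI libraries, with 121 and 0 CPM in CD45 RIT. Of these calls, Gclm after IgG RIT was lost when any untreated or IgG RIT library was left out (adjusted p 0.0618 to 0.0739), and Gsr after IgG RIT with median-of-ratios factors, with no filter or without IgG RIT replicate 1 or 3 (adjusted p 0.0563 to 0.0774).

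Among the glutathione peroxidases, Gpx1 and Gpx4 rose after IgG RIT, while Gpx3 and Gpx7 rose after CD45 RIT and Gpx3 fell after TBI. Gpx1 (ENSMUSG00000063856.7, chromosome 9, 108338903 to 108340343), the cytosolic enzyme that red cells hold in quantity, stood at 2994, 3601, 3281 and 3068 CPM in untreated, 3249, 4548, 3965, 4596 and 17030 CPM in TBI, 15890, 15390 and 15980 CPM in IgG RIT and 14120 and 1520 CPM in CD45 RIT libraries. IgG RIT libraries, TBI replicate 6 and CD45 RIT replicate 1 formed a high group, and CD45 RIT replicate 2 lay below all untreated libraries. Gpx1 rose 4.87-fold after IgG RIT, a log2 change of 2.28 (SE 0.66, adjusted p 0.0351). The group means were 3236 ± 272 CPM (SD, n = 4) untreated and 15750 ± 314 CPM (SD, n = 3) after IgG RIT. Its change was 1.04 (SE 0.59, adjusted p 0.392) after TBI and 1.27 (SE 0.72, adjusted p 0.181) after CD45 RIT, where it was 2.09 without replicate 2.

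Gpx3 (ENSMUSG00000018339.11, chromosome 11, 54902453 to 54910377), the secreted plasma enzyme, held 302, 463, 308 and 248 CPM in untreated, 44.5, 35.6, 35, 38.6 and 221 CPM in TBI, 197, 147 and 239.9 CPM in IgG RIT and 4000 and 5333 CPM in CD45 RIT libraries. CD45 RIT libraries were far above all others, TBI replicates 1, 3, 4 and 5 were far below, and TBI replicate 6 was among the IgG RIT values. Gpx3 fell 4.41-fold after TBI (-2.14, SE 0.54, adjusted p 0.044) and rose 14.1-fold after CD45 RIT (3.82, SE 0.67, adjusted p 0.00127), with -0.76 (SE 0.61, adjusted p 0.415) after IgG RIT. Without TBI replicate 6 the fall was -3.10 (adjusted p 0.000132).

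Gpx4 (ENSMUSG00000075706.10, chromosome 10, 80047166 to 80056439), which reduces lipid hydroperoxides in membranes, stood at 325, 434, 339 and 372 CPM in untreated, 382, 416, 444, 370.3 and 818 CPM in TBI, 747, 871 and 961 CPM in IgG RIT and 511 and 319.6 CPM in CD45 RIT libraries. All 3 IgG RIT libraries exceeded untreated, and Gpx4 rose there 2.34-fold (1.23, SE 0.27, adjusted p 0.0117). Neither TBI (0.40, SE 0.24, adjusted p 0.437) nor CD45 RIT (0.18, SE 0.31, adjusted p 0.674) gave a call. Gpx7 (ENSMUSG00000028597.11, chromosome 4, 108400390 to 108406961), an enzyme of the endoplasmic reticulum, was low outside CD45 RIT, with 8.75, 12, 6.18 and 5.58 CPM in untreated, 2.62, 2.84, 2.67, 2.44 and 1.15 CPM in TBI, 4.34, 1.84 and 0 CPM in IgG RIT and 68.8 and 158 CPM in CD45 RIT libraries. It rose 13.9-fold after CD45 RIT (3.80, SE 0.99, adjusted p 0.0119), and its changes of -1.79 (SE 0.79, adjusted p 0.251) after TBI and -1.98 (SE 0.95, adjusted p 0.169) after IgG RIT were not called. The Gpx1 call was lost when any untreated or IgG RIT library was left out (adjusted p 0.0700 to 0.0808). The Gpx3 call after TBI was lost with median-of-ratios factors, with no filter and when any untreated library, any of the other TBI libraries or any IgG RIT library was left out (adjusted p 0.0543 to 0.124).

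The transferases, which couple glutathione to electrophiles, made up most of the falls after TBI and after IgG RIT, and several rose after CD45 RIT. Of 12 members, 4 fell and 0 rose after TBI, 5 fell and 2 rose after IgG RIT, and 1 fell and 4 rose after CD45 RIT. Gstm2 (ENSMUSG00000040562.12, chromosome 3, 107981702 to 107986453), a mu-class enzyme, held 4.14, 16.5, 7.65 and 7.87 CPM in untreated, 1.66, 1.7, 1.24, 1.25 and 1.94 CPM in TBI, 1.85, 2.79 and 3.84 CPM in IgG RIT and 165 and 281 CPM in CD45 RIT libraries. The TBI and IgG RIT libraries all lay below untreated and both CD45 RIT libraries far above. Gstm2 fell after TBI (-2.53, SE 0.39, adjusted p 0.00402) and after IgG RIT (-1.67, SE 0.45, adjusted p 0.0256), and rose 24.7-fold after CD45 RIT (4.63, SE 0.48, adjusted p 3.55e-05).

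Mgst1 (ENSMUSG00000008540.11, chromosome 6, 138140316 to 138156755), a membrane-bound enzyme of the endoplasmic reticulum and mitochondria, stood at 43.5, 60.2, 32.5 and 33.6 CPM in untreated, 8.71, 10.4, 5.96, 13.3 and 12.3 CPM in TBI, 12.3, 14.3 and 14.2 CPM in IgG RIT and 397 and 322 CPM in CD45 RIT libraries. No TBI or IgG RIT library reached the lowest untreated value. Mgst1 fell 4.19-fold after TBI (-2.07, SE 0.26, adjusted p 0.00158) and 3.11-fold after IgG RIT (-1.64, SE 0.30, adjusted p 0.00534), and rose 8.46-fold after CD45 RIT (3.08, SE 0.32, adjusted p 3.17e-05). These 3 calls were kept under every alternative run. Gsta4 (ENSMUSG00000032348.6, chromosome 9, 78182774 to 78209349), which takes up aldehydes from lipid peroxidation, held 3.09, 6.11, 5.24 and 7.52 CPM in untreated, 2.37, 1.45, 4.29, 3.19 and 4.02 CPM in TBI, 1.74, 1.79 and 1.42 CPM in IgG RIT and 34 and 84.9 CPM in CD45 RIT libraries. It fell after IgG RIT (-1.73, SE 0.50, adjusted p 0.033) and rose 10.8-fold after CD45 RIT (3.44, SE 0.52, adjusted p 0.000423), with -0.84 (SE 0.41, adjusted p 0.305) after TBI.

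Mgst3 and Gstt1 were the transferases that rose after IgG RIT. Mgst3 (ENSMUSG00000026688.5, chromosome 1, 167371966 to 167393841), another membrane-bound enzyme, stood at 232, 268, 323 and 237 CPM in untreated, 359, 539.8, 374, 487 and 1536 CPM in TBI, 1644, 1634 and 1874 CPM in IgG RIT and 468 and 77.1 CPM in CD45 RIT libraries. TBI replicate 6 and the 3 IgG RIT libraries were above all others. Mgst3 rose 6.48-fold after IgG RIT (2.7, SE 0.58, adjusted p 0.00991), its untreated mean being 265 ± 42 CPM (SD, n = 4) and its IgG RIT mean 1717 ± 136 CPM (SD, n = 3), while TBI gave 1.31 (SE 0.52, adjusted p 0.189) and CD45 RIT 0.04 (SE 0.64, adjusted p 0.968). Gstt1 (ENSMUSG00000001663.10, chromosome 10, 75783813 to 75798584), a theta-class enzyme, held 7.47, 13.4, 13.7 and 10.9 CPM in untreated, 6.16, 12.9, 8.21, 12.6 and 28.6 CPM in TBI, 53.6, 54.8 and 74.2 CPM in IgG RIT and 95.1 and 68.9 CPM in CD45 RIT libraries. Both RIT groups lay above all untreated and TBI libraries, and TBI replicate 6 lay between. Gstt1 rose 5.35-fold after IgG RIT (2.42, SE 0.46, adjusted p 0.00594) and 7.2-fold after CD45 RIT (2.85, SE 0.50, adjusted p 0.00122).

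Of the 2 other called transferases, Gstm1, a mu-class NRF2 target, ranged from 129.8 to 190.5 CPM in untreated, 19.2 to 43.3 in TBI, 24.7 to 36.3 in IgG RIT and 137 to 168 in CD45 RIT libraries. It fell 5.53-fold after TBI (-2.47, SE 0.26, adjusted p 0.00104) and 5.61-fold after IgG RIT (-2.49, SE 0.31, adjusted p 0.00172), with -0.12 (SE 0.33, adjusted p 0.796) after CD45 RIT. Gsto1, an omega-class enzyme that also reduces dehydroascorbate, ranged from 115 to 167 CPM in untreated, 51.8 to 100.5 in TBI, 28.6 to 46.6 in IgG RIT and 38.9 to 54 in CD45 RIT libraries. It was the only member lower in all 3 comparisons, at -0.92 (SE 0.23, adjusted p 0.0387), -1.96 (SE 0.28, adjusted p 0.00193) and -1.64 (SE 0.32, adjusted p 0.00219) after TBI, IgG RIT and CD45 RIT. The 5 transferases called nowhere against untreated were Gstm5, Gstp1, Gstt2, Gstk1 and Gstz1, with untreated means from 5.31 CPM in Gstk1 to 135.5 CPM in Gstp1, and Gstk1 had 0 counts in CD45 RIT replicate 2. Gsto1 after TBI was lost in 10 settings outside the replicate block, without TBI replicate 6 at -0.81 (adjusted p 0.0604), and after IgG RIT Gstm2 and Gsta4 were lost with no filter (adjusted p 0.0562 and 0.0922) and without several single libraries (adjusted p 0.0567 to 0.0998).

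Peroxiredoxins, thiol enzymes that remove peroxide, moved in opposite directions after IgG RIT, 2 of them and sulfiredoxin up and 3 down. Prdx2 (ENSMUSG00000005161.15, chromosome 8, 84969587 to 84974834), the main peroxiredoxin of red cells, stood at 939, 1081, 1122 and 1056 CPM in untreated, 1745, 2009, 1936, 2214 and 6552 CPM in TBI, 5633, 6008 and 6146 CPM in IgG RIT and 3298 and 486 CPM in CD45 RIT libraries. All TBI and IgG RIT libraries lay above all untreated ones, and CD45 RIT replicate 2 lay below them. Prdx2 rose 5.65-fold after IgG RIT (2.50, SE 0.57, adjusted p 0.0125), its mean being 1049 ± 78.8 CPM (SD, n = 4) in untreated and 5929 ± 265 CPM (SD, n = 3) in IgG RIT libraries. After TBI the change was 1.46 (SE 0.51, adjusted p 0.135), called with DESeq2 and when either or both CD45 RIT libraries were left out (1.46 to 1.64, adjusted p 0.0179 to 0.0232). After CD45 RIT it was 0.85 (SE 0.62, adjusted p 0.291).

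Prdx3 (ENSMUSG00000024997.7, chromosome 19, 60864051 to 60874556), the mitochondrial form, held 188, 216, 223 and 224 CPM in untreated, 419, 441, 464, 458 and 652 CPM in TBI, 606, 572 and 529 CPM in IgG RIT and 271 and 38 CPM in CD45 RIT libraries. All TBI and IgG RIT libraries were above untreated. Prdx3 rose after IgG RIT (1.42, SE 0.43, adjusted p 0.0439), with 1.19 (SE 0.40, adjusted p 0.116) after TBI and -0.46 (SE 0.51, adjusted p 0.489) after CD45 RIT. Srxn1 (ENSMUSG00000032802.8, chromosome 2, 152105516 to 152111376), sulfiredoxin, which repairs over-oxidised peroxiredoxins, held 23.3, 14.5, 13.6 and 17.8 CPM in untreated, 33.5, 24.7, 29.3, 29.5 and 92.1 CPM in TBI, 62.2, 45.8 and 83.2 CPM in IgG RIT and 107 and 34.7 CPM in CD45 RIT libraries. TBI and both RIT groups lay above all untreated libraries. Srxn1 rose 3.68-fold after IgG RIT (1.88, SE 0.50, adjusted p 0.0256) and 4.11-fold after CD45 RIT (2.04, SE 0.55, adjusted p 0.0138), with 1.27 (SE 0.45, adjusted p 0.146) after TBI. Without CD45 RIT replicate 1 its value was 0.99 (adjusted p 0.181).

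Prdx6 (ENSMUSG00000026701.15, chromosome 1, 161240112 to 161251219), which also has phospholipase activity, stood at 480.5, 556, 434 and 568 CPM in untreated, 477, 357, 541, 356 and 216 CPM in TBI, 201, 242 and 190 CPM in IgG RIT and 201 and 59.7 CPM in CD45 RIT libraries. It fell after IgG RIT (-1.27, SE 0.38, adjusted p 0.038) and 3.92-fold after CD45 RIT (-1.97, SE 0.46, adjusted p 0.00641), where no library overlapped untreated. Prdx4 (ENSMUSG00000025289.15, chromosome X, 155323918 to 155340754), the endoplasmic reticulum form, held 60.4, 140.1, 79.8 and 95.2 CPM in untreated, 101, 91.9, 91.8, 94.4 and 108 CPM in TBI, 96.6, 121 and 109 CPM in IgG RIT and 255 and 296 CPM in CD45 RIT libraries. Only the CD45 RIT libraries lay above untreated, and Prdx4 rose there 2.93-fold (1.55, SE 0.26, adjusted p 0.000845). Prdx5, found in mitochondria, peroxisomes and cytosol, ranged from 130.5 to 167 CPM in untreated, 52 to 86.8 in TBI, 49.9 to 69.9 in IgG RIT and 167 to 234 in CD45 RIT libraries, and fell after TBI (-1.01, SE 0.19, adjusted p 0.0108) and IgG RIT (-1.33, SE 0.22, adjusted p 0.00347). Prdx1, the cytosolic NRF2 target, ranged from 410.3 to 492, 286 to 453, 186 to 249.8 and 387 to 509 CPM in the same order and fell after IgG RIT (-1.07, SE 0.20, adjusted p 0.00529), with -0.26 (SE 0.17, adjusted p 0.469) after TBI. The Prdx3 call was lost without scaling factors (0.90, adjusted p 0.115) and when any untreated, any IgG RIT or any TBI library but replicate 6 was left out (adjusted p 0.0598 to 0.109), and that of Prdx6 with no filter or without any untreated or IgG RIT library or TBI replicate 3 or 5 (adjusted p 0.0528 to 0.113). The Srxn1 call after IgG RIT was lost without untreated replicate 2, 3 or 4 or IgG RIT replicate 1 or 3 (adjusted p 0.0577 to 0.0799).

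In the thioredoxin system the 2 thioredoxins fell after CD45 RIT and the mitochondrial reductase rose after IgG RIT. Txn1 (ENSMUSG00000028367.5, chromosome 4, 57943373 to 57956411), cytosolic thioredoxin, stood at 242, 337, 255 and 264 CPM in untreated, 274, 257, 264, 252 and 288 CPM in TBI, 257, 296 and 314 CPM in IgG RIT and 138 and 151 CPM in CD45 RIT libraries. Txn2 (ENSMUSG00000005354.16, chromosome 15, 77915047 to 77929006), its mitochondrial counterpart, held 229.6, 318, 245 and 291 CPM in untreated, 357, 278, 359, 277 and 277 CPM in TBI, 246, 271 and 254 CPM in IgG RIT and 109.7 and 87.6 CPM in CD45 RIT libraries. Both CD45 RIT libraries lay below all others for each gene. Txn1 fell 1.91-fold (-0.93, SE 0.17, adjusted p 0.00187) and Txn2 2.75-fold (-1.46, SE 0.21, adjusted p 0.000293), and these calls were kept under every alternative run. After TBI and IgG RIT the changes were -0.04 and 0.07 for Txn1 and 0.19 and -0.08 for Txn2, none of them called. Txnrd2 (ENSMUSG00000075704.16, chromosome 16, 18426384 to 18479073), mitochondrial thioredoxin reductase, held 107, 108, 137 and 132 CPM in untreated, 163, 196, 203, 190.2 and 418 CPM in TBI, 502, 359 and 366 CPM in IgG RIT and 241 and 117 CPM in CD45 RIT libraries. TBI and IgG RIT libraries all exceeded untreated, and Txnrd2 rose 3.38-fold after IgG RIT (1.76, SE 0.33, adjusted p 0.00559), with 0.95 (SE 0.30, adjusted p 0.095) after TBI and 0.56 (SE 0.37, adjusted p 0.243) after CD45 RIT. Txnrd1 (ENSMUSG00000020250.10, chromosome 10, 82833951 to 82897712), the cytosolic reductase and an NRF2 target, stood at 96.2, 79.9, 78.2 and 91.7 CPM in untreated, 186, 94.1, 159.6, 127 and 97.9 CPM in TBI, 99.7, 72.8 and 105 CPM in IgG RIT and 159.9 and 0.0962 CPM in CD45 RIT libraries. It was called nowhere, at 0.62 (SE 0.93, adjusted p 0.826), 0.10 (SE 1.05, adjusted p 0.965) and -0.11 (SE 1.19, adjusted p 0.95) after TBI, IgG RIT and CD45 RIT, and CD45 RIT replicate 2 had 2 counts.

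Catalase was higher after both forms of RIT and extracellular superoxide dismutase had the largest rise and the largest fall of any member against untreated. Cat (ENSMUSG00000027187.10, chromosome 2, 103453849 to 103485160), which breaks down hydrogen peroxide, held 124, 106, 164 and 127 CPM in untreated, 175, 228, 181, 243 and 433 CPM in TBI, 467, 272 and 299 CPM in IgG RIT and 1057 and 457 CPM in CD45 RIT libraries. Every irradiated library lay above every untreated one, with CD45 RIT replicate 1 highest. Cat rose 2.66-fold after IgG RIT (1.41, SE 0.36, adjusted p 0.0204) and 5.83-fold after CD45 RIT (2.54, SE 0.39, adjusted p 0.000536), with 0.96 (SE 0.32, adjusted p 0.121) after TBI. The IgG RIT call was lost without untreated replicate 2 or 4 or IgG RIT replicate 1 (adjusted p 0.0502 to 0.0893).

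Sod3 (ENSMUSG00000072941.5, chromosome 5, 52363791 to 52371418), the secreted dismutase of matrix and vessel wall, stood at 3.8, 5.72, 5.91 and 5.51 CPM in untreated, 0.743, 0.692, 0.668, 0.237 and 0.862 CPM in TBI, 5.1, 2.64 and 3.68 CPM in IgG RIT and 139 and 267 CPM in CD45 RIT libraries. TBI libraries all lay below untreated, IgG RIT libraries overlapped untreated and CD45 RIT libraries were far above. Sod3 fell 8.2-fold after TBI (-3.04, SE 0.37, adjusted p 0.00139) and rose 38.8-fold after CD45 RIT (5.28, SE 0.46, adjusted p 1.05e-05), with -0.46 (SE 0.40, adjusted p 0.458) after IgG RIT. Sod1 (ENSMUSG00000022982.10, chromosome 16, 90220754 to 90226329), the cytosolic copper and zinc enzyme, held 62.4, 131, 93.2 and 79 CPM in untreated, 74.4, 76.5, 90.3, 75.3 and 100.2 CPM in TBI, 123, 143 and 143 CPM in IgG RIT and 62.1 and 55.2 CPM in CD45 RIT libraries. Its changes of -0.13 (SE 0.20, adjusted p 0.833), 0.58 (SE 0.23, adjusted p 0.104) and -0.64 (SE 0.27, adjusted p 0.0866) after TBI, IgG RIT and CD45 RIT were not called. Sod2, the mitochondrial manganese enzyme, was not called either and ranged from 102 to 168 CPM over all libraries. Nqo1 (ENSMUSG00000003849.8, chromosome 8, 107388225 to 107403206), a quinone reductase often used as a readout of NRF2, stood at 33.3, 24.3, 26.3 and 24.4 CPM in untreated, 27.6, 30.3, 28.4, 30.2 and 69 CPM in TBI, 67.5, 72.9 and 67.1 CPM in IgG RIT and 65.7 and 0 CPM in CD45 RIT libraries. The IgG RIT libraries, TBI replicate 6 and CD45 RIT replicate 1 lay between 65.7 and 72.9 CPM, and CD45 RIT replicate 2 was at 0. Nqo1 was not called, with 1.35 (SE 1.09, adjusted p 0.418) after IgG RIT, where leaving out both CD45 RIT libraries gave 1.54 (adjusted p 0.00439).

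Told apart by class, 3 of 4 red cell antioxidants rose after IgG RIT, while the NRF2 targets were called in both directions. Of the 4 red cell antioxidants, 0 were called after TBI, 3 higher after IgG RIT (Prdx2, Gpx1 and Cat) and 1 higher after CD45 RIT (Cat), with median log2 fold changes of 1.00, 1.85 and 1.06. Their summed level on the library total was 4971 to 5955 CPM in untreated libraries, 6216 to 8432 CPM in TBI replicates 1, 3, 4 and 5, 20460 CPM in TBI replicate 6, 17630 to 19110 CPM in IgG RIT, and 13040 and 1951 CPM in CD45 RIT. On the scaled library size it was 4119 to 4918 CPM in untreated and 21820 to 22560 CPM in IgG RIT libraries. Cat departed from the rest of this class after CD45 RIT. In CD45 RIT replicate 2 it was at 457 CPM, above all untreated libraries, whereas Prdx2, Gpx1 and Sod1 lay below all of them. Of the 9 NRF2 targets, 1 was lower after TBI (Gstm1). After IgG RIT 2 were higher (Gclm and Srxn1) and 3 lower (Gsr, Prdx1 and Gstm1), and after CD45 RIT 1 was higher (Srxn1) and 1 lower (Txn1). Their median log2 fold changes were 0.45, 0.10 and -0.06. Of the red cell antioxidants 0%, 75% and 25% were called after TBI, IgG RIT and CD45 RIT, and of the NRF2 targets 11.1%, 55.6% and 22.2%. Over all genes the shares were 4.31%, 16.4% and 33.1%, so after CD45 RIT both classes lay below the background. The direction of the class sum depended on the scaling. On the scaled library size, as used for single genes, the NRF2 targets summed to 1573 ± 72.0 CPM in untreated (SD, n = 4; 1470 to 1632) and 2152 ± 145 CPM in IgG RIT libraries (SD, n = 3; 1995 to 2281), which do not overlap, and to 1623 to 2344 CPM in TBI and 2176 and 1078 CPM in CD45 RIT. On the library total they summed to 1777 to 1950 CPM in untreated, 1924 to 2006 in TBI, 1738 to 1904 in IgG RIT and 1531 and 835 CPM in CD45 RIT libraries.

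Erythroid marker RNA was higher in the same comparison as Prdx2, Gpx1 and Cat. Of 15 erythroid markers tested, 9 were higher and 0 lower after IgG RIT, 3 and 0 after TBI, and 6 and 0 after CD45 RIT. These are shares of 60%, 20% and 40%, where 16.4%, 4.31% and 33.1% of all genes were called (5.75%, 0.921% and 14.5% higher). Klf1 and Gata1 were at 0 in CD45 RIT replicate 2. Per 1000 erythroid marker counts, Prdx2 had 85.6 to 148 counts in untreated libraries, 31 to 74.9 in TBI, 30.8 to 37.6 in IgG RIT, and 12.0 and 7.95 in CD45 RIT replicates 1 and 2. Catalase gave 12.5 to 14.4, 2.05 to 6.99 and 1.70 to 2.55 in the same order, and 3.85 and 7.47 in CD45 RIT replicates 1 and 2. Both ratios were lower in every irradiated library than in any untreated one. The same held for Keap1, which was not called against untreated. It had 6.79 to 12.7 in untreated, 0.484 to 3.42 in TBI, 0.496 to 0.608 in IgG RIT and 0.381 to 1.21 in CD45 RIT libraries. A lower ratio is therefore not particular to the red cell antioxidants, as the erythroid sum it is divided by was higher. The part of erythroid RNA in the change of Prdx2, Gpx1, Cat, Gclm, Nqo1 or any other member was not tested. The comparisons in which Gstm1, Gsto1, Prdx1, Prdx5, Prdx6 and Gsr were called lower after TBI or IgG RIT also had lower markers of other cells. Of 8 basophil and mast cell markers 3 were lower after TBI and 6 after IgG RIT (37.5% and 75%). Of 12 neutrophil markers 4 and 4 were lower (33.3% each), and of 10 progenitor markers 4 and 4 (40% each). None of these were called higher. Over all genes, 3.38% were lower after TBI and 10.7% after IgG RIT. The median log2 fold change of the neutrophil markers was -0.69 after TBI but 0.97 after IgG RIT. Of 12 macrophage markers 3 were lower after TBI, and 4 were lower and 1 higher after IgG RIT. Of 8 B cell markers 0 were called in either comparison. The part of these cells in the falls was not tested.

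**Figure D3:**
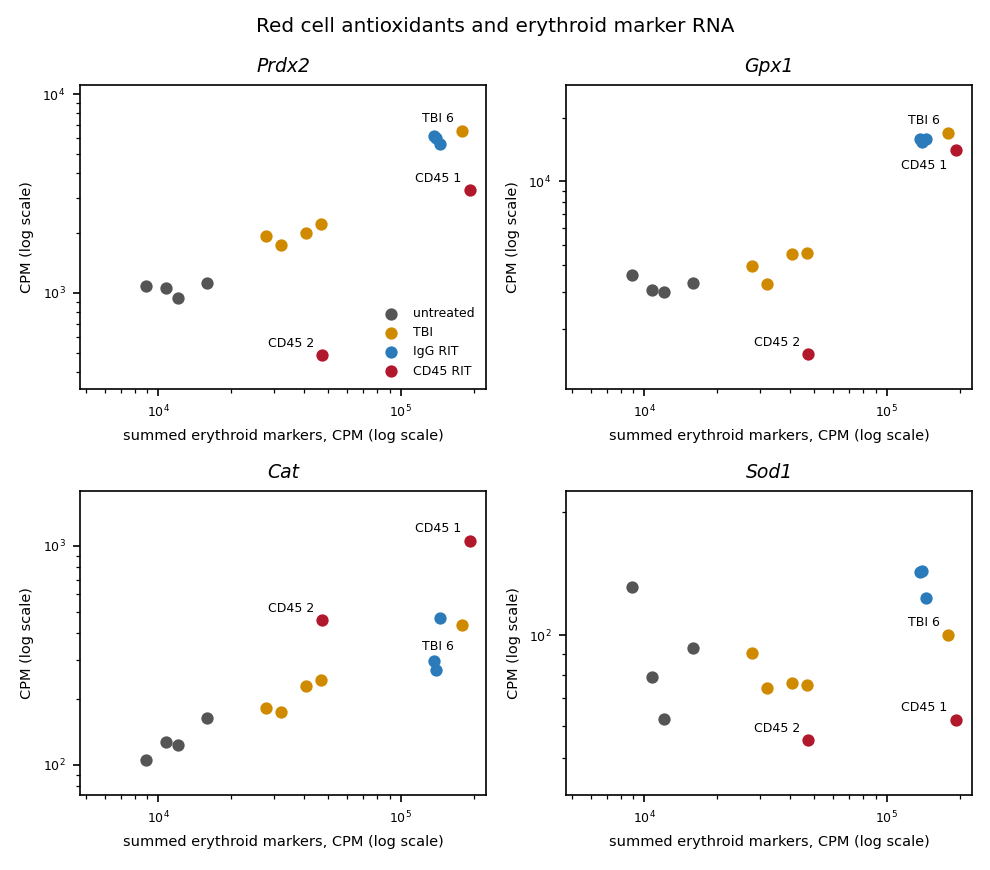
Each point is 1 of 14 libraries. The x axis is the summed CPM of 15 erythroid markers and the y axis the CPM of Prdx2, Gpx1, Cat or Sod1, both on log scales. For Prdx2 and Gpx1 the IgG RIT libraries and TBI 6 sit together at the upper right, and CD45 2 sits low at an erythroid sum of 47440 CPM.

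**Figure D4:**
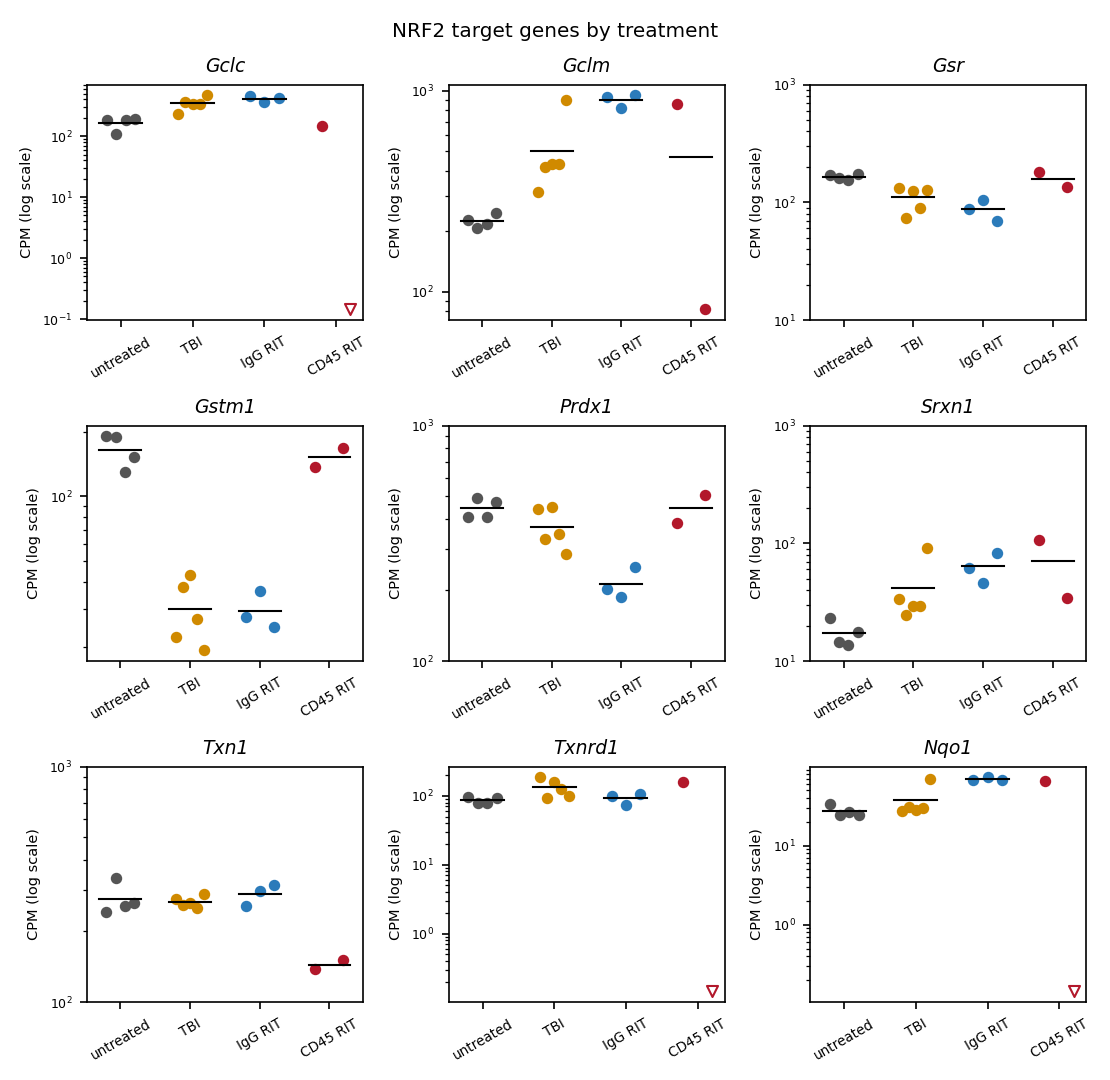
Points give the CPM (log scale) of 9 NRF2 targets in each library by group, and lines the group mean. Open triangles mark libraries at 3 counts or fewer, all of them CD45 RIT replicate 2, where no mean is drawn. Gstm1 is low in all TBI and IgG RIT libraries, and Gclm is high in all IgG RIT libraries and in TBI replicate 6.

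Stromal marker RNA was higher after CD45 RIT, as several members were. Of 16 stromal markers, 15 were higher after CD45 RIT, 9 were lower after TBI and 5 were lower after IgG RIT. These are shares of 93.8%, 56.2% and 31.2%, where 33.1%, 4.31% and 16.4% of all genes were called. All 16 had counts in both CD45 RIT libraries. Gpx3, Sod3, Gstm2, Mgst1, Gsta4, Gpx7 and Prdx4 were higher in both CD45 RIT libraries than in any of the other 12, as was Nfe2l2. Prdx5 was so only by 167.2 CPM in CD45 RIT replicate 2 against 167 in untreated replicate 2, and was not called (adjusted p 0.163). How many of all genes lay apart in this way was not counted, and 14.5% were called higher after CD45 RIT. The stromal sum ran from 392 to 1223 CPM in IgG RIT and from 1005 to 2361 CPM in TBI libraries, which overlap, whereas Sod3 was higher in every IgG RIT than in every TBI library, and Prdx4 was not called after TBI or IgG RIT. Macrophage markers summed to between 2333 and 2534 CPM in the CD45 RIT libraries, above untreated, with Adgre1 and Spic at 0 in both. The list was mixed, with 6 of 12 markers called higher and 3 lower against untreated (75%, where 33.1% of all genes were called). Neutrophil markers summed to between 5.23 and 14.6 CPM. The part of either cell type in these changes was not tested.

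**Figure D5:**
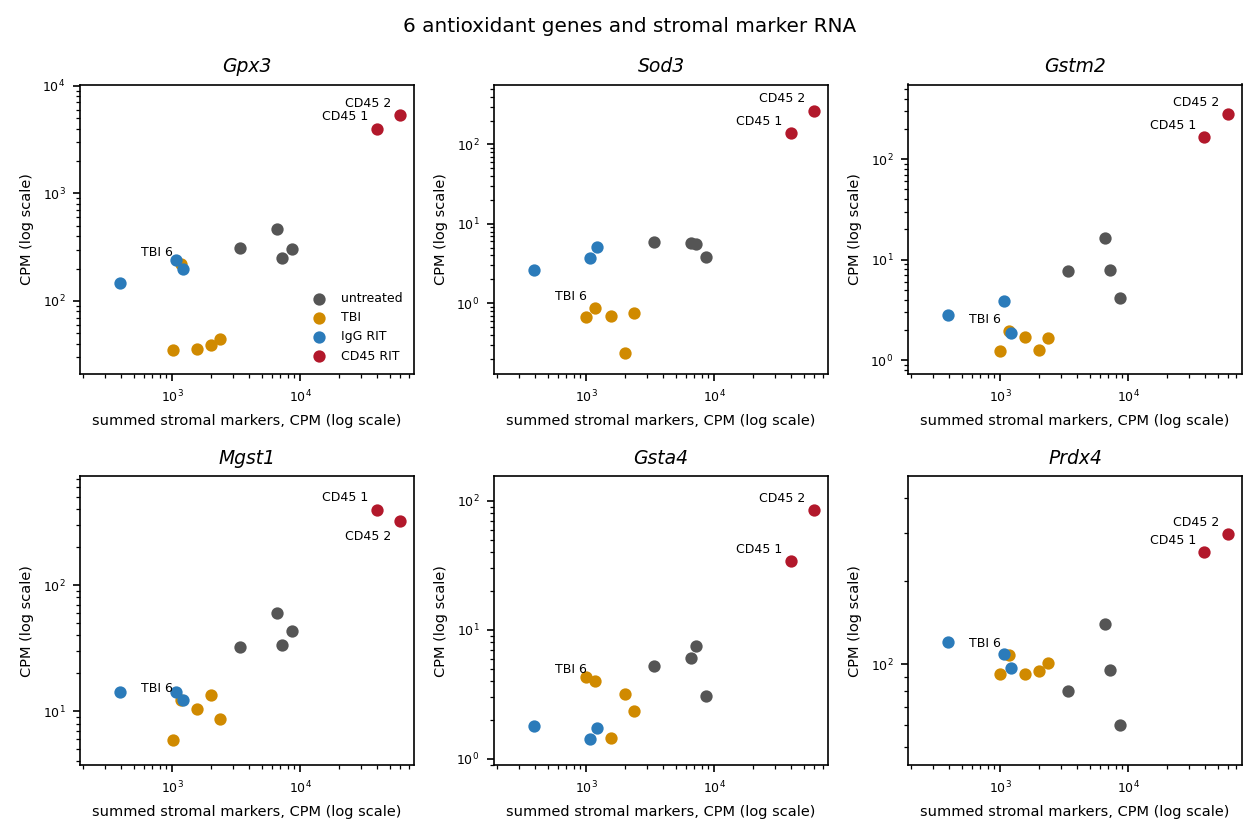
Each point is 1 of 14 libraries. The x axis is the summed CPM of 16 stromal markers and the y axis the CPM of Gpx3, Sod3, Gstm2, Mgst1, Gsta4 or Prdx4, both on log scales. The CD45 RIT libraries lie at the upper right in all 6 panels, at 39410 and 60140 CPM of stromal markers.

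Levels of different genes were compared per kilobase of the gene length given in the deposited table. The length of the transcripts present was not measured, so the order depends on that given length. It is 1051 bases for Txn1 and 3043 for Prdx1, for example. On untreated mean CPM alone Prdx1, at 446, lay above Txn1, at 274. In untreated libraries Gpx1 led with 2246 ± 189 CPM per kilobase (SD, n = 4), followed by Prdx2 at 344 ± 25.8, Txn1 at 261 ± 40.5, Mgst3 at 242 ± 38.3, Gpx4 at 213 ± 28.1 and Gpx3 at 182 ± 50.9. Txn1, Mgst3, Gpx4 and Gpx3 each lay within the SDs of the next, while Gpx1 and Prdx2 stood clear. In IgG RIT libraries the order was Gpx1 at 10930 ± 218 (SD, n = 3), Prdx2 at 1944 ± 87.0 and Mgst3 at 1565 ± 124 CPM per kilobase. In CD45 RIT libraries Gpx1 at 5426 ± 6183 (SD, n = 2) and Gpx3 at 2574 ± 520 CPM per kilobase could not be ordered. All 38 members together took 1.06 to 1.24% of counts in untreated libraries, 1.21 to 1.42% in TBI replicates 1, 3, 4 and 5, 2.69% in TBI replicate 6, 2.35 to 2.54% in IgG RIT, and 2.03 and 0.934% in CD45 RIT replicates 1 and 2.

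Related genes outside the 38 were examined from a list of 17 further NRF2 targets and one of 23 further glutathione and thioredoxin genes, 21 of which were tested. Of the further NRF2 targets, 0 were higher and 1 lower after TBI, 4 higher and 3 lower after IgG RIT, and 7 higher and 1 lower after CD45 RIT. The shares called were 5.88%, 41.2% and 47.1%, where 4.31%, 16.4% and 33.1% of all genes were, so that after TBI lies near the background. The TBI call was Cbr3, a carbonyl reductase, at a log2 change of -3.69 (SE 0.92, adjusted p 0.0431). After IgG RIT the smallest adjusted p values belonged to Fth1, ferritin heavy chain (1.66, SE 0.25, adjusted p 0.00225), and to Pgd of the pentose phosphate pathway (-1.51, SE 0.33, adjusted p 0.0109) and Ugdh (-1.62, SE 0.38, adjusted p 0.0136). After CD45 RIT they belonged to Tkt, transketolase (-1.89, SE 0.25, adjusted p 0.000164), Ephx1, microsomal epoxide hydrolase (4.91, SE 0.65, adjusted p 0.000191), and Ugdh (2.36, SE 0.39, adjusted p 0.000822). Fth1 stood at 2124, 2659, 2411 and 2366 CPM in untreated and 7641, 7493 and 7521 CPM in IgG RIT libraries, which do not overlap.

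Of the further glutathione and thioredoxin genes, 1 was higher and 3 lower after TBI, 4 higher and 3 lower after IgG RIT, and 7 higher and 3 lower after CD45 RIT, shares of 19.0%, 33.3% and 47.6% beside the same backgrounds. After TBI these were led by Gpx8 (-3.07, SE 0.57, adjusted p 0.0111), Txnip, which binds and inhibits thioredoxin (-1.02, SE 0.20, adjusted p 0.0128), and Ggt5 (-3.05, SE 0.61, adjusted p 0.0162), all lower. After IgG RIT they were led by the glyoxalases Hagh (2.79, SE 0.50, adjusted p 0.00467) and Glo1 (1.33, SE 0.24, adjusted p 0.00482), both higher, and by Msra, a methionine sulfoxide reductase (-2.23, SE 0.41, adjusted p 0.00509). After CD45 RIT, Txnip rose to 598 and 680.3 CPM from 136, 149, 129.6 and 109.8 CPM in untreated (2.29, SE 0.24, adjusted p 4.0e-05). Gpx8 rose too (3.72, SE 0.68, adjusted p 0.00164), and Ggt7, at 66 to 209 counts in untreated libraries, had 2 and 0 counts (adjusted p 0.000787). Txnip and Gpx8 thus fell after TBI and rose after CD45 RIT, as Gpx3, Gstm2, Mgst1 and Sod3 did, 2 comparisons that share the untreated libraries.

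Set directly against IgG RIT, CD45 RIT gave 20 calls among the 38 members (52.6%), 13 higher and 7 lower, where 37.7% of all genes were called, 20.2% higher and 17.5% lower. Gstm2 (6.30, SE 0.58, adjusted p 1.32e-05), Gpx7 (5.78, SE 1.20, adjusted p 0.00283), Sod3 (5.74, SE 0.53, adjusted p 1.28e-05) and Gsta4 (5.17, SE 0.61, adjusted p 6.37e-05) were the most raised. Gstm1 (2.37, SE 0.34, adjusted p 0.000257), Prdx5 (1.77, SE 0.25, adjusted p 0.000226) and Prdx1 (1.07, SE 0.23, adjusted p 0.00316) were also higher than after IgG RIT. Lower were Mgst3 (-2.66, SE 0.76, adjusted p 0.0164), Prdx3 (-1.88, SE 0.56, adjusted p 0.0202), Txn2 (-1.38, SE 0.21, adjusted p 0.000389), Sod1 (-1.22, SE 0.29, adjusted p 0.00617), Txnrd2, Gpx4 and Txn1. Prdx2 (-1.65, SE 0.71, adjusted p 0.0841) and Gpx1 (-1.01, SE 0.81, adjusted p 0.337) were not called. Without CD45 RIT replicate 1 both were called lower, at -3.61 and -3.38 (adjusted p 0.00149 and 0.0068), and Prdx2 was also called lower without scaling factors (adjusted p 0.0301), without TBI replicate 6 (0.0341) and with DESeq2 (0.0449).

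Against TBI, CD45 RIT gave 17 calls (44.7%), 13 higher and 4 lower, where 38.6% of all genes were called, 19.6% higher and 19.0% lower. Without scaling factors there were 22, 11 in each direction. Sod3 (8.31, SE 0.47, adjusted p 3.94e-07), Gstm2 (7.16, SE 0.48, adjusted p 9.73e-07) and Gpx3 (5.96, SE 0.66, adjusted p 2.7e-05) differed most, and Prdx3, Prdx6, Txn1 and Txn2 were the 4 lower. IgG RIT against TBI gave 1 call (2.63%), where 0.242% of all genes were called, 0.0697% higher and 0.172% lower. Sod3 was higher after IgG RIT (2.58, SE 0.39, adjusted p 0.0204). This call was lost when TBI replicate 1, 3 or 4 or IgG RIT replicate 1 or 2 was left out (adjusted p 0.0534 to 0.0751). Without TBI replicate 6, 11 members were called, 9 higher after IgG RIT and 2 lower, among them Gpx3 at 2.34 (adjusted p 0.00076) and Gpx1 at 1.95 (adjusted p 0.0327). For this setting, and for CD45 RIT against TBI without scaling factors, the shares over all genes are not given here. These 2 counts therefore cannot be read as results about the members. A total of 10 members had an unadjusted p under 0.05 with all libraries.

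Several members share sequence or position with other genes. How reads were counted by strand and how reads common to copies were assigned is not given in the sources used here, and the library kit does not mark strand. Prdx2 overlaps Rnaseh2a and Junb on the opposite strand, and Sod1 overlaps Scaf4, so their counts are uncertain to that extent. Named copies held 17.7% as many counts as Gpx4 (Gpx4-ps2), 14.7% and 8.81% as many as Gstp1 (Gstp-ps and Gstp3) and 3.74% as many as Prdx2 (Prdx2-ps1).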

How the data were processed

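RNA was extracted with a Qiagen micro kit, amplified with SMART-Seq v4 and made into libraries with Nextera XT, per the labels' protocols. The authors deposited raw read counts per gene. STAR 2.7.7a, FastQC 0.11.9 and edgeR 3.36.0 are named in the submitters' processing notes. The notes name the build hg38, but the coordinates in the deposited table equal those of mouse GRCm38 for 54587 of 54587 matched gene IDs. The counter and its handling of strand and of shared reads are not given in the sources used here.

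Counts were fitted with edgeR 4.0.16 (R 4.3.3), with TMM factors, a filter on low counts (at least 10, total at least 15) and the robust quasi-likelihood test over all 14 libraries, with Benjamini-Hochberg adjustment over 21509 genes in each comparison. The standard error (SE) of a log2 fold change was taken from its size and its F statistic, as size over root F. CPM of single genes use the scaled library size, and sums over lists use the library total unless a sentence says otherwise. On simulated counts for 21509 genes the fit called 21.6%, 10.3% and 8.62% of 4-fold changes with the right sign (TBI, IgG RIT and CD45 RIT against untreated) and 57.1%, 56% and 39.3% of 32-fold changes, so a gene that was not called may still differ. Only 116 genes were given a 4-fold and 84 a 32-fold change, drawn at random over all levels. These are fewer than were called in the data, so the shares do not give the sensitivity for the members. Groups came from the labels, and a gene at 3 counts or fewer was treated as at the floor.

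The genes and lists were chosen with earlier results of these data known. All members are accounted for. Values in every library are given for members called against untreated at least once and for all NRF2 targets and red cell antioxidants, and where a role held over 5 of these, for the 5 with the largest change. From each further list the 3 genes with the smallest adjusted p are named. Alternatives were DESeq2 1.42.0, median-of-ratios (RLE) factors, no scaling factors, no filter, a replicate block and each library left out. Leaving out both CD45 RIT libraries was added after the data were seen.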

Additional observations from a re-analysis of the deposited data

Results flagged for a closer look

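In 15 of 76 groups of 4 or 5 libraries (38 genes in untreated and in TBI), 1 library lay apart from the rest by Dixon's 95% criterion, where chance gives about 1 in 20. In the untreated group these were Gclc in replicate 2, low at 106.5 CPM, and Gstz1 in replicate 3, low at 36.36 CPM. The other 13 were all TBI replicate 6. In that library Prdx2 was at 6552 CPM (1745 to 2214 in the other 4), Gpx1 at 17030 CPM (3249 to 4596) and Gpx3 at 221.1 CPM (35.02 to 44.49). Gclm was at 895.4, Gpx4 at 817.9, Gstm5 at 265.3, Mgst3 at 1536, Prdx3 at 652.2, Srxn1 at 92.11, Txnrd2 at 417.5, Cat at 432.8 and Nqo1 at 68.99 CPM, all high, and Gpx7 was low at 1.149 CPM. Its summed erythroid markers stood at 179200 CPM, against 27700 to 46790 in the other 4 TBI libraries, and the part of this in the values above was not tested.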

How the results depend on the processing

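Of the member results called in the main fit or in the alternative, 1459 kept their direction and side of the threshold, 144 lost their call, 147 gained one and 8 reversed. Results called in neither fit were not counted. The member counts below are given without shares over all genes, so changes in them cannot be read as results about the members. With all libraries 7 members were called after TBI, against 12 with DESeq2, 2 with the replicate block and 17 with both CD45 RIT libraries left out. IgG RIT against TBI gave 1 call, against 3 without scaling factors, 6 with DESeq2 and 6 with both CD45 RIT libraries left out. The replicate block gave 13 calls after IgG RIT and 13 after CD45 RIT. The labels do not say whether the numbers pair the samples. Correlations of deviations from group means in 13 same-numbered pairs ran from -0.0896 to 0.139, 1 of them over 0.1. Of 12 libraries, 3 correlated best with their own number. The deviations of the 2 CD45 RIT libraries mirror each other, and other group means also rest on few libraries, so this check cannot exclude pairing. Leaving out 1 library gave 5 to 17 calls for TBI, 10 to 24 for IgG RIT and 14 to 21 for CD45 RIT, each against untreated. It gave 16 to 29 for CD45 RIT against IgG RIT, 17 to 26 for CD45 RIT against TBI and 0 to 11 for IgG RIT against TBI. Calls after TBI went to 15 and 17 without CD45 RIT replicate 1 and 2. Those after IgG RIT went to 12 without untreated replicate 2 or 4 or IgG RIT replicate 3 and to 10 without IgG RIT replicate 1. CD45 RIT against TBI went to 26 without CD45 RIT replicate 1. IgG RIT against TBI went to 0 without TBI replicate 1, 3 or 4 or IgG RIT replicate 1 or 2, to 11 without TBI replicate 6, and to 6 and 5 without CD45 RIT replicate 1 and 2. The 8 reversals all came without CD45 RIT replicate 1, which leaves that arm with 1 library assumed to vary like the others: Gclm -1.47, Gss -13.09, Gstk1 -10.07 and Nqo1 -12.42 against untreated, Gss -13.30 and Gstk1 -9.11 against IgG RIT, and Gpx1 -2.14 and Gstk1 -9.05 against TBI. Without CD45 RIT replicate 2 these stood at Gclm 1.89, Gss 1.45 and Gstk1 2.20 against untreated, Gss 1.04 and Gstk1 2.97 against IgG RIT, and Gstk1 3.12 against TBI. Gss, Gstk1 and Nqo1 are at 0 in the library that remains, so their values depend on the prior count and are no bounds. Depth limits Gclc and Txnrd1 (2 counts each there) in the same way.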
